A study of Sus scrofa with 6 samples.

Results

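Antioxidant enzymes of the newborn piglet liver were followed as a set of 10 genes. The set holds the dismutases SOD1 and SOD2, catalase (CAT), the glutathione peroxidases GPX1 and GPX4, the peroxiredoxins PRDX1 and PRDX3, both subunits of glutamate-cysteine ligase (GCLC and GCLM) and haem oxygenase 1 (HMOX1). Members were found by matching gene symbols to the Ensembl pig identifiers of the expression tables. SOD1, CAT, GPX4, PRDX1, PRDX3 and GCLC, 6 of the 10, had an identifier among the 26733 genes, and SOD2, GPX1, GCLM and HMOX1 were not analysed here. The livers came from newborn Landrace x Yorkshire piglets whose mothers differed in the daily timing of tryptophan. High-Low sows ate 0.39% tryptophan in the morning meal and 0.13% in the afternoon meal, and 2×Trp sows ate 0.26% at each meal. Each diet had 3 libraries. No untreated control beyond these diets was analysed here.

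Superoxide leaks from the respiratory chain and from oxidases. Superoxide dismutases turn it into hydrogen peroxide, which catalase breaks down in peroxisomes and which glutathione peroxidases and peroxiredoxins reduce at the expense of glutathione and thioredoxin. Glutamate-cysteine ligase makes the first and limiting step of glutathione synthesis, and the transcription factor NRF2 (NFE2L2) drives many of these genes. The liver is the main source of glutathione in the body, and at birth it moves from the low oxygen of the womb to air breathing. The question here is how these nuclear genes stood beside the mRNAs of the mitochondrial genome, whose fold changes all leaned towards High-Low.

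Values were read as FPKM (fragments of a gene scaled by its length and by the mapped fragments of its library), and 1 table per library gave them. Low values of single-exon genes fell on steps of 1 fragment. The steps put the fragments behind the scaling at 15500000 to 18700000 for the High-Low libraries and at 13300000 to 18600000 for the 2×Trp libraries. For genes with several exons the fragments could not be recovered, so no counting error is given for single genes. The labels do not say that libraries came from separate animals or litters, and p-values therefore speak only of how far these samples spread, and that spread may be technical. High-Low 1 and High-Low 2 were the least alike libraries (Spearman's rho 0.878 over 10901 genes, against 0.887 to 0.945 for the other pairs). Hepatocyte markers summed to 60648, 75211 and 48319 FPKM in High-Low 1, 2 and 3, against 58712, 70003 and 52181 FPKM in 2×Trp 1, 2 and 3, and none of the 9 present was at 0. The most abundant of them leaned opposite ways. ALB averaged 17650 FPKM in High-Low and 12020 FPKM in 2×Trp, and APOA1 18084 and 25161 FPKM. Of the 9, 6 had a positive and 3 a negative log2 fold change (High-Low minus 2×Trp), so like sums do not show like levels of each marker.

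Of the 6 antioxidant enzymes, 0 passed the test between diets in either direction at an adjusted p under 0.05. That test was limma on log2(FPKM + 1), fitted to the 10901 genes that reached 1 FPKM in 3 libraries or more, and all 6 enzymes passed this filter. Their adjusted p was 0.998 each. Across all genes tested 0.00917% were called. At an unadjusted p under 0.05 there were also 0 of the 6, where all genes gave 3.16%. In 0 of the 6 did the High-Low and 2×Trp values lie apart without overlap, against 7.18% of all genes (3.06% with High-Low higher and 4.12% with High-Low lower). The log2 fold changes (High-Low minus 2×Trp) were positive for 3 and negative for 3, with a median of 0.04 beside -0.0038 over all genes tested. An interval is given for each enzyme below, since failing the test does not show equal levels. In these bulk samples fewer cells of a type and less RNA per cell cannot be told apart.

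**Figure D1:**
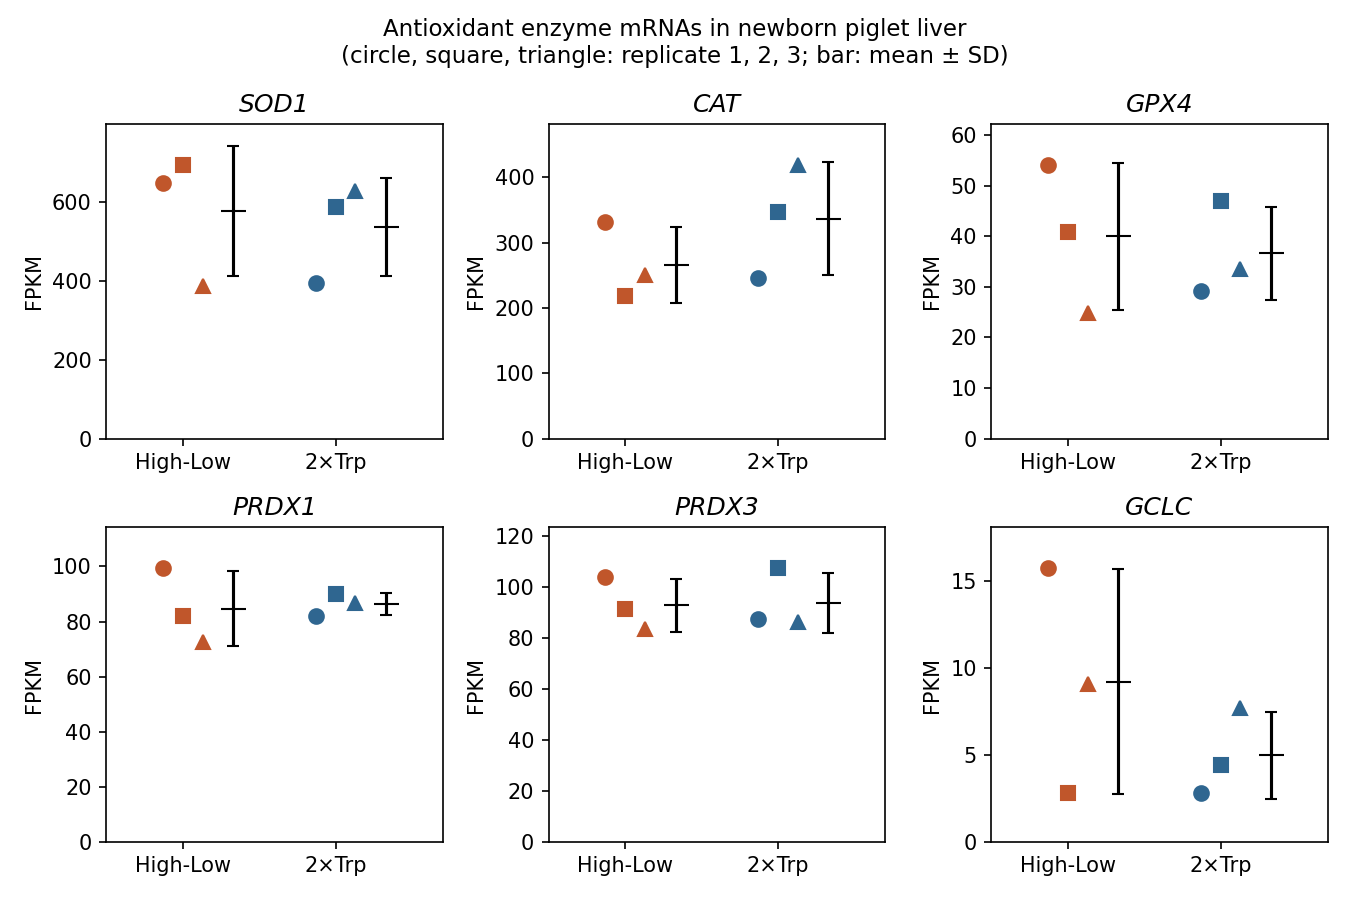
FPKM of the 6 antioxidant enzymes in each library (vertical axis, starting at 0), with High-Low in orange and 2×Trp in blue, replicates 1, 2 and 3 as circle, square and triangle, and the mean ± SD of 3 libraries as a black bar. The groups overlap in every panel, and GCLC has the widest spread, with High-Low 1 at 15.7 FPKM and 2×Trp 1 at 2.80 FPKM.

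SOD1, the copper and zinc dismutase of the cytosol, was the most abundant of the 6 on the FPKM scale. Its gene (ENSSSCG00000021355) is listed on chromosome 13 at 205620986 to 205629933, plus strand, in the susScr3 assembly that also holds for the coordinates below. SOD1 had 648, 693 and 388 FPKM in High-Low 1, 2 and 3, against 394, 587 and 628 FPKM in 2×Trp 1, 2 and 3. High-Low 3 and 2×Trp 1 were both low, the other 4 libraries were all above them, and so each diet had 1 low library. The means were 576 ± 165 FPKM in High-Low and 537 ± 125 FPKM in 2×Trp (SD, n = 3 each). The log2 fold change was 0.09 (SE 0.29, 95% interval -0.60 to 0.77). Its sign turned when a single library was left out: it was -0.02 without High-Low 1, -0.07 without High-Low 2 and -0.12 without 2×Trp 1, against 0.35 without High-Low 3. CCS, the chaperone that loads copper into SOD1, had 47.6, 52.6 and 38.2 FPKM in High-Low libraries 1 to 3 and 37.1, 52.1 and 33.4 FPKM in 2×Trp libraries 1 to 3.

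CAT, the peroxisomal enzyme that splits hydrogen peroxide into water and oxygen, had the most negative fold change of the 6. The gene (ENSSSCG00000013302) lies on chromosome 2 at 28860746 to 28900838, minus strand. CAT had 331, 219 and 250 FPKM in High-Low 1, 2 and 3, against 246, 346 and 419 FPKM in 2×Trp 1, 2 and 3. High-Low 2 was the lowest library and 2×Trp 3 the highest, while High-Low 1, High-Low 3 and 2×Trp 1 lay inside the range of the other diet. CAT averaged 266 ± 58.1 FPKM in High-Low and 337 ± 86.9 FPKM in 2×Trp (SD, n = 3 each). The log2 fold change was -0.32 (SE 0.26, 95% interval -0.94 to 0.29), and it stayed negative without each library in turn, from -0.53 without 2×Trp 1 and -0.49 without High-Low 1 to -0.19 without High-Low 2 and -0.15 without 2×Trp 3. The 2×Trp 3 library, highest for CAT, was also among the highest in red cell genes, where catalase is abundant. The erythroid markers in the tables, 8 of 10, summed to 1817, 7200 and 4410 FPKM in High-Low 1, 2 and 3, against 15894, 6172 and 15372 FPKM in 2×Trp 1, 2 and 3. These sums are mostly HBB, at 1793, 7122 and 4303 FPKM in High-Low and 15745, 6094 and 15187 FPKM in 2×Trp. HBB and ALAS2 were highest in 2×Trp 1, and HBM, HBZ, EPB42, SLC4A1 and KLF1 in 2×Trp 3. TRIM10 was highest in 2×Trp 2 and lowest in 2×Trp 1. None of the 8 was at 0 in all libraries. The other 2×Trp library with a high erythroid sum, 2×Trp 1, was the lowest 2×Trp library for CAT, and the part of red cells in the CAT values was not tested.

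GPX4, the selenoenzyme that reduces lipid hydroperoxides in membranes, was among the less abundant enzymes. It is listed (ENSSSCG00000024052) on chromosome 2 at 77673695 to 77675018, plus strand. The length listed for it is 155 bases, so its level relative to other genes is uncertain. GPX4 had 54.0, 40.9 and 24.9 FPKM in High-Low 1, 2 and 3, against 29.3, 46.9 and 33.6 FPKM in 2×Trp 1, 2 and 3. High-Low held both the highest and the lowest of the 6 values, so the 2×Trp range lay inside it. GPX4 averaged 39.97 ± 14.6 FPKM in High-Low and 36.6 ± 9.19 FPKM in 2×Trp (SD, n = 3 each). The log2 fold change was 0.08 (SE 0.32, 95% interval -0.66 to 0.83). It was -0.16 without High-Low 1 and -0.06 without 2×Trp 1, against 0.38 without High-Low 3. GPX1, the cytosolic glutathione peroxidase, was not analysed here.

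The peroxiredoxins PRDX1 and PRDX3 were the steadiest of the 6. PRDX1 works in the cytosol, and PRDX3 removes most of the hydrogen peroxide in the mitochondrial matrix. Among the 6 enzymes found, PRDX3 is thus the closest to the respiratory chain. PRDX1 (ENSSSCG00000003914, chromosome 6 at 153253887 to 153265947, plus strand) had 99.3, 82.1 and 72.6 FPKM in High-Low 1, 2 and 3, against 82.1, 90.1 and 86.7 FPKM in 2×Trp 1, 2 and 3. PRDX3 (ENSSSCG00000010682, chromosome 14 at 140603477 to 140615527, minus strand) had 104, 91.1 and 83.3 FPKM in High-Low 1, 2 and 3, against 87.2, 107 and 86.2 FPKM in 2×Trp 1, 2 and 3. High-Low 3 was the lowest of all 6 libraries for both genes. High-Low 1 was the highest for PRDX1 and 2×Trp 2 for PRDX3, and the diets overlapped in both.

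PRDX1 averaged 84.7 ± 13.6 FPKM in High-Low and 86.3 ± 4.01 FPKM in 2×Trp, and PRDX3 averaged 92.7 ± 10.3 FPKM in High-Low and 93.6 ± 11.8 FPKM in 2×Trp (SD, n = 3 each). The log2 fold change of PRDX1 was -0.04 (SE 0.19, 95% interval -0.48 to 0.40). That of PRDX3 was -0.01 (SE 0.19, 95% interval -0.45 to 0.43). Both signs turned under other scalings: with libraries scaled to the FPKM total of nuclear genes the log2 fold changes were 0.02 for PRDX1 and 0.05 for PRDX3, with quantile normalization 0.05 and 0.09, and scaling to the whole FPKM total gave 0.0014 for PRDX3. Without High-Low 3 they were 0.07 for PRDX1 and 0.06 for PRDX3, and without 2×Trp 2 that of PRDX3 was 0.09. The intervals leave out changes of about 1 on the log2 scale in either direction for both genes. The ratio of the mitochondrial to the cytosolic enzyme, which no scaling of a library can move, had log2 values of 0.06, 0.15 and 0.20 in High-Low 1, 2 and 3 and 0.09, 0.25 and -0.01 in 2×Trp 1, 2 and 3. It differed by 0.03 between High-Low (0.14 ± 0.07) and 2×Trp (0.11 ± 0.13; SD, n = 3 each; two-sided exact permutation p = 0.8, where 0.1 is the smallest this design allows). The High-Low values all lay within the range of the 2×Trp values.

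GCLC, the catalytic subunit of glutamate-cysteine ligase, varied most between libraries. The gene (ENSSSCG00000001488) lies on chromosome 7 at 31702762 to 31747437, plus strand. GCLC had 15.7, 2.82 and 9.07 FPKM in High-Low 1, 2 and 3, against 2.80, 4.44 and 7.68 FPKM in 2×Trp 1, 2 and 3. High-Low 1 stood highest and High-Low 3 next, while High-Low 2 was level with the lowest 2×Trp library. GCLC averaged 9.20 ± 6.44 FPKM in High-Low and 4.97 ± 2.48 FPKM in 2×Trp (SD, n = 3 each). The log2 fold change was 0.61 (SE 0.56, 95% interval -0.69 to 1.92), the largest of the 6 and the least certain. Leaving out High-Low 1 gave 0.14. Leaving out High-Low 2 gave 1.20, where the unadjusted p was below 0.05 but the adjusted p in limma was 0.352 (range over 14 alternatives 0.352 to 1.0). Leaving out 2×Trp 1 gave 0.33 and leaving out 2×Trp 3 gave 0.92. These libraries therefore decide the size of the GCLC difference. Its partner GCLM was not analysed here.

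The enzymes differed in how widely the libraries spread. The highest of the 6 libraries exceeded the lowest 1.29-fold for PRDX3, 1.37-fold for PRDX1, 1.79-fold for SOD1, 1.91-fold for CAT, 2.17-fold for GPX4 and 5.61-fold for GCLC. Ranked among all genes tested by the SD within groups on the log2 scale, PRDX1 and PRDX3 were both at the 13.2 percentile. CAT was at the 56.0, SOD1 at the 67.4, GPX4 at the 73.2 and GCLC at the 95.4 percentile. By mean level over the 6 libraries the order was SOD1 (556.5 FPKM), CAT (302 FPKM), PRDX3 (93.1 FPKM), PRDX1 (85.5 FPKM), GPX4 (38.3 FPKM) and GCLC (7.09 FPKM). PRDX3 and PRDX1 overlapped in range and exchanged places between libraries, and the ranges of SOD1 and CAT met at the edge, with the lowest SOD1 value under the highest CAT value. The other neighbours in this order did not overlap. FPKM set levels per length, but the sources used here do not say which transcript lengths went into the deposited values, so this order is uncertain. SOD1, PRDX1 and GPX4 have close pseudogene copies in mammals, and the same sources do not say how reads shared with such copies were assigned.

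The 6 profiles over the libraries were not alike. The mean of the 6 profiles, each centred on the gene's own mean log2 value, was 0.43, -0.15 and -0.19 in High-Low 1, 2 and 3, against -0.34, 0.10 and 0.14 in 2×Trp 1, 2 and 3. In this mean High-Low 1 was highest and 2×Trp 1 lowest, and GCLC weighs most in it, at 1.26 in High-Low 1 and -0.88 in 2×Trp 1. Taken singly, 2×Trp 1 was the lowest library only for GCLC. High-Low 3 was lowest for SOD1, GPX4, PRDX1 and PRDX3, and High-Low 2 for CAT. As a measure of likeness the root mean square distance between centred log2 profiles over the 6 libraries was used, on which 0 means identical profiles. It grows with the size of a gene's swings as well as with a difference in shape. Genes that varied little, such as PRDX1 and PRDX3, therefore tend to lie close, and GCLC, which varied most, tends to lie far. PRDX1 and PRDX3 were the closest pair, at 0.09, followed by SOD1 and GPX4 at 0.23. GCLC was at least 0.68 from every other member, its nearest being CAT.

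Among all tested genes with a symbol, those closest to the mean profile were COMMD3 (distance 0.0427), MMUT (0.0450) and STXBP3 (0.0456), out of 6012 genes that varied enough to compare. MMUT encodes the mitochondrial methylmalonyl-CoA mutase. The 3 nearest to PRDX1 were SAMM50 (0.0420), a subunit of the mitochondrial outer membrane assembly machinery, CNOT8 (0.0540) and LAPTM4B (0.0568). PRDX3 had PRIM2 (0.0561) and the glycolytic PGK1 (0.0617) among its nearest. SOD1 had FAF1 (0.0662), EPCAM (0.0742) and PIN4 (0.0850), and CAT had MMAA (0.0858) and IMMP1L (0.152) among its nearest. GPX4 had CDKAL1 (0.112), ETHE1 (0.145) and SMPD2 (0.153), and GCLC had PPM1B (0.159), MAN1A1 (0.174) and MPDZ (0.189). These are descriptions over 6 libraries, chosen as the smallest among many distances.

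The mRNAs of the mitochondrial genome, which code for parts of the complexes of oxidative phosphorylation, are the background against which the members are set. Their fold changes were positive in 13 of 13 and spanned 0.27 to 1.98 on the log2 scale (median 0.89). By limma 0 of them passed the adjusted threshold, while 9 had an unadjusted p under 0.05 on the higher side, as did 1.25% of all genes. The 13 were read from the same 6 libraries, so counts over them are not 13 separate observations of the diets. The 95% interval of PRDX3 (upper bound 0.43) lay wholly below the intervals of 5 of the 13, which were ND1, ND2, ND4L, ND5 and ND6. The same 5 stood wholly above PRDX1. Against CAT 8 of the 13 stood wholly above, against SOD1 and GPX4 3 each (ND2, ND4L and ND6), and against GCLC 0. These counts are descriptions, as the 13 were taken up with their higher level in High-Low known. The median log2 fold change over all genes tested was -0.0038, and the share of all genes below the same intervals is not given here. The counts also depend on how wide each enzyme's interval is. ND1, a subunit of complex I, had 2902, 3282 and 2375 FPKM in High-Low 1, 2 and 3, against 1065, 1485 and 863 FPKM in 2×Trp 1, 2 and 3, and did not overlap between diets. ND6, of the same complex, had 1315, 1461 and 897 FPKM in High-Low 1, 2 and 3, against 187, 494 and 300.2 FPKM in 2×Trp 1, 2 and 3. ND6 lies opposite the end of ND5 and ND4L shares bases with ND4. The sources used here do not name the strand setting of the counting, so the values of these genes are uncertain.

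**Figure D2:**
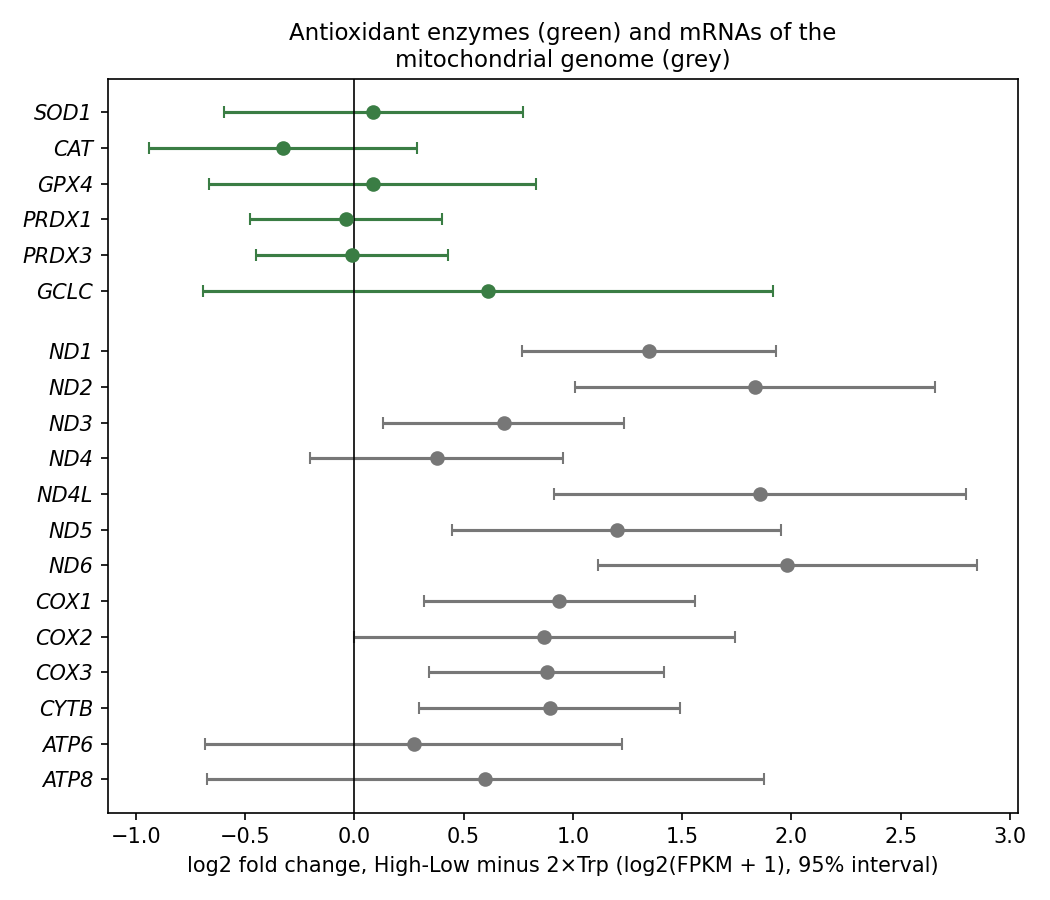
Log2 fold change (horizontal axis, High-Low minus 2×Trp on log2(FPKM + 1)) with its 95% interval from limma for the 6 antioxidant enzymes in green and the 13 mitochondrial mRNAs in grey. The intervals of all 6 enzymes include 0, from -0.32 for CAT to 0.61 for GCLC, and the estimates of all 13 mitochondrial mRNAs lie to the right of 0, up to 1.98 for ND6, though the intervals of ND4, COX2, ATP6 and ATP8 include 0.

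Library by library, the enzymes did not follow the mitochondrial mRNAs in a way the test could show. The mean log2 level of the 13 mRNAs was 12.31, 11.71 and 11.58 in High-Low 1, 2 and 3, against 10.47, 11.29 and 10.67 in 2×Trp 1, 2 and 3. As a share of all FPKM, genes on the mitochondrial sequence took 10.02%, 5.83% and 6.79% in High-Low 1, 2 and 3, against 3.48%, 5.20% and 4.16% in 2×Trp 1, 2 and 3. High-Low 1 led in both measures, and it was also the highest library for GPX4, PRDX1 and GCLC. 2×Trp 1 was lowest in both measures and lowest for GCLC. Over the 6 libraries Pearson's r with the mean mitochondrial level was 0.57 for GPX4 (exact permutation p = 0.242), 0.55 for GCLC (exact permutation p = 0.253) and 0.48 for PRDX3 (exact permutation p = 0.358). It was 0.41 for SOD1 (exact permutation p = 0.381), 0.32 for PRDX1 (exact permutation p = 0.544) and -0.14 for CAT (exact permutation p = 0.778). After Benjamini-Hochberg adjustment over the 6 members the exact permutation p-values ran from 0.571 to 0.778.

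Spearman's rho was 0.54 for GPX4 (exact permutation p = 0.297), 0.60 for GCLC (exact permutation p = 0.242), 0.31 for PRDX3 (exact permutation p = 0.564), 0.54 for SOD1 (exact permutation p = 0.297), 0.14 for PRDX1 (exact permutation p = 0.803) and -0.20 for CAT (exact permutation p = 0.714). Adjusted over the 6, these exact permutation p-values ran from 0.594 to 0.803. All these tests were two-sided. Without High-Low 1 and 2×Trp 1, the libraries farthest from the median mitochondrial level, r was -0.02 for GPX4, -0.45 for GCLC and 0.05 for PRDX3. It was -0.25 for SOD1, -0.53 for PRDX1 and -0.95 for CAT. These are descriptions, since 4 libraries cannot give an exact permutation p under 0.0833. CAT reached that value, which was 0.5 once adjusted over the 6. Of the members with a positive r over the 6 libraries, only PRDX3 kept one without High-Low 1 and 2×Trp 1. Leaving out the extremes also narrows the range of the mitochondrial level. The values over 4 libraries therefore cannot decide whether the positive values rest on High-Low 1 and 2×Trp 1. With the mitochondrial share of the FPKM total in place of the mean level, r over the 6 libraries was 0.76 for GCLC (exact permutation p = 0.0861, adjusted 0.517), from 0.29 to 0.52 for SOD1, GPX4, PRDX1 and PRDX3, and 0.02 for CAT. The mitochondrial level also differed between the diets without overlap, so a relation to it and a relation to diet cannot be told apart here.

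**Figure D3:**
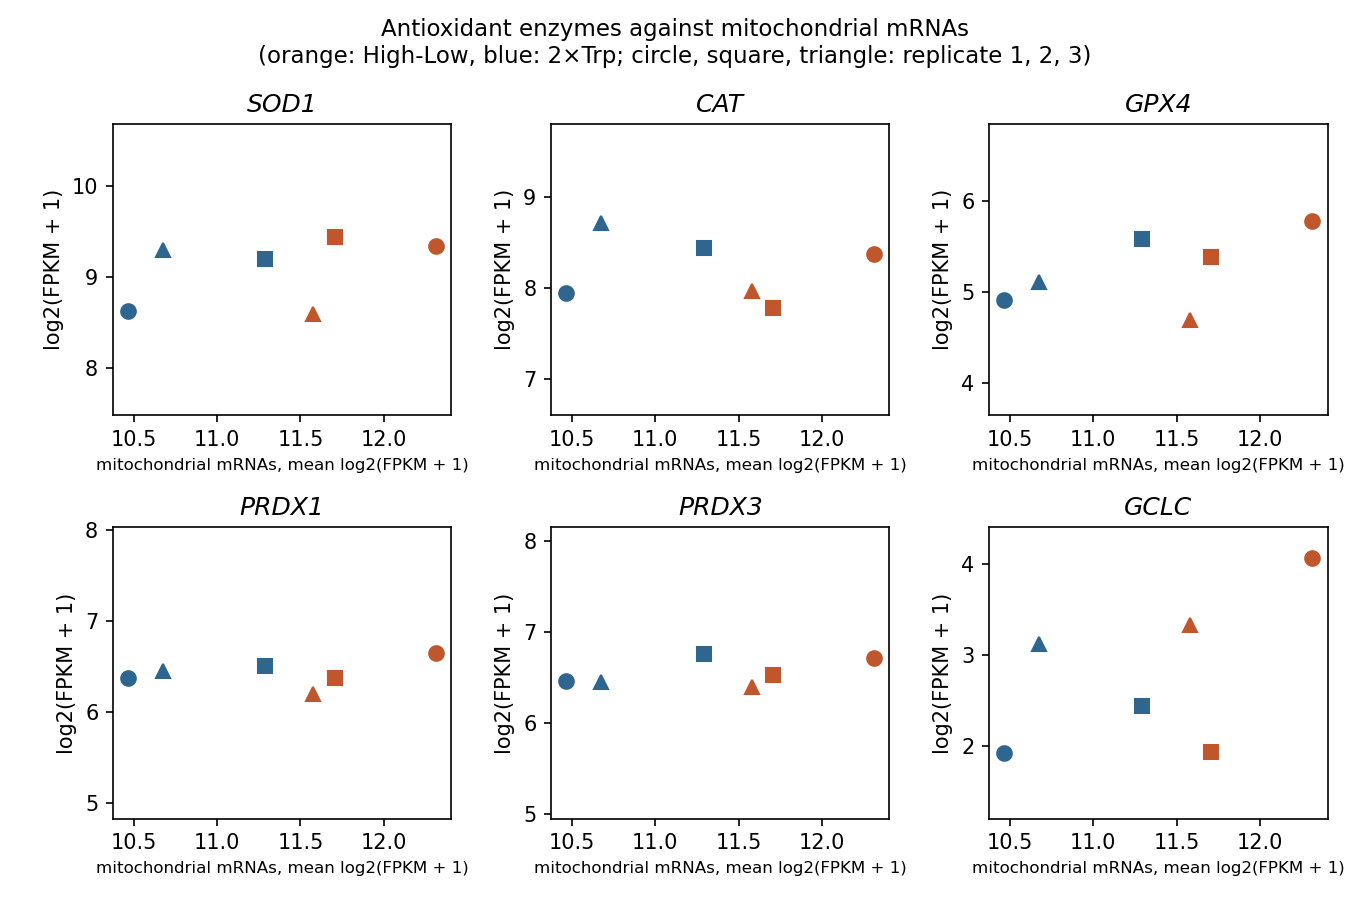
Log2(FPKM + 1) of each antioxidant enzyme (vertical axis, 3.2 log2 units high in every panel) against the mean log2(FPKM + 1) of the 13 mitochondrial mRNAs (horizontal axis), 1 point per library, with High-Low in orange and 2×Trp in blue. PRDX1 and PRDX3 lie nearly flat, while GCLC scatters from High-Low 1 at the top right to 2×Trp 1 at the bottom left, with High-Low 2 as low as 2×Trp 1.

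Around the 6 members, 9 further lists of redox genes were read from the same fit. They named 120 genes, of which 83 had an identifier and 71 passed the filter on low values. Of the 71, limma called 0. An unadjusted p under 0.05 was found for 4 (5.63%, beside 3.16% of all genes), 1 higher and 3 lower in High-Low. In 7 of the 71 (9.86%, beside 7.18% of all genes) the diets did not overlap, 2 higher and 5 lower. The median log2 fold change over the 71 was -0.10, with 24 positive and 47 negative. High-Low 2 was the highest library for 23 of the 71 and High-Low 3 the lowest for 26. The matching shares of all genes are not given here, so these counts do not set redox genes apart. High-Low 3 also had the lowest FPKM total, 956426, against 1192905 and 1230288 in High-Low 1 and 2 and 1080050 to 1215059 in the 2×Trp libraries. The tested genes named below did not pass the test (adjusted p = 0.998 each in limma), and KEAP1 and SLC7A11 were under the filter and not tested.

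**Figure D4:**
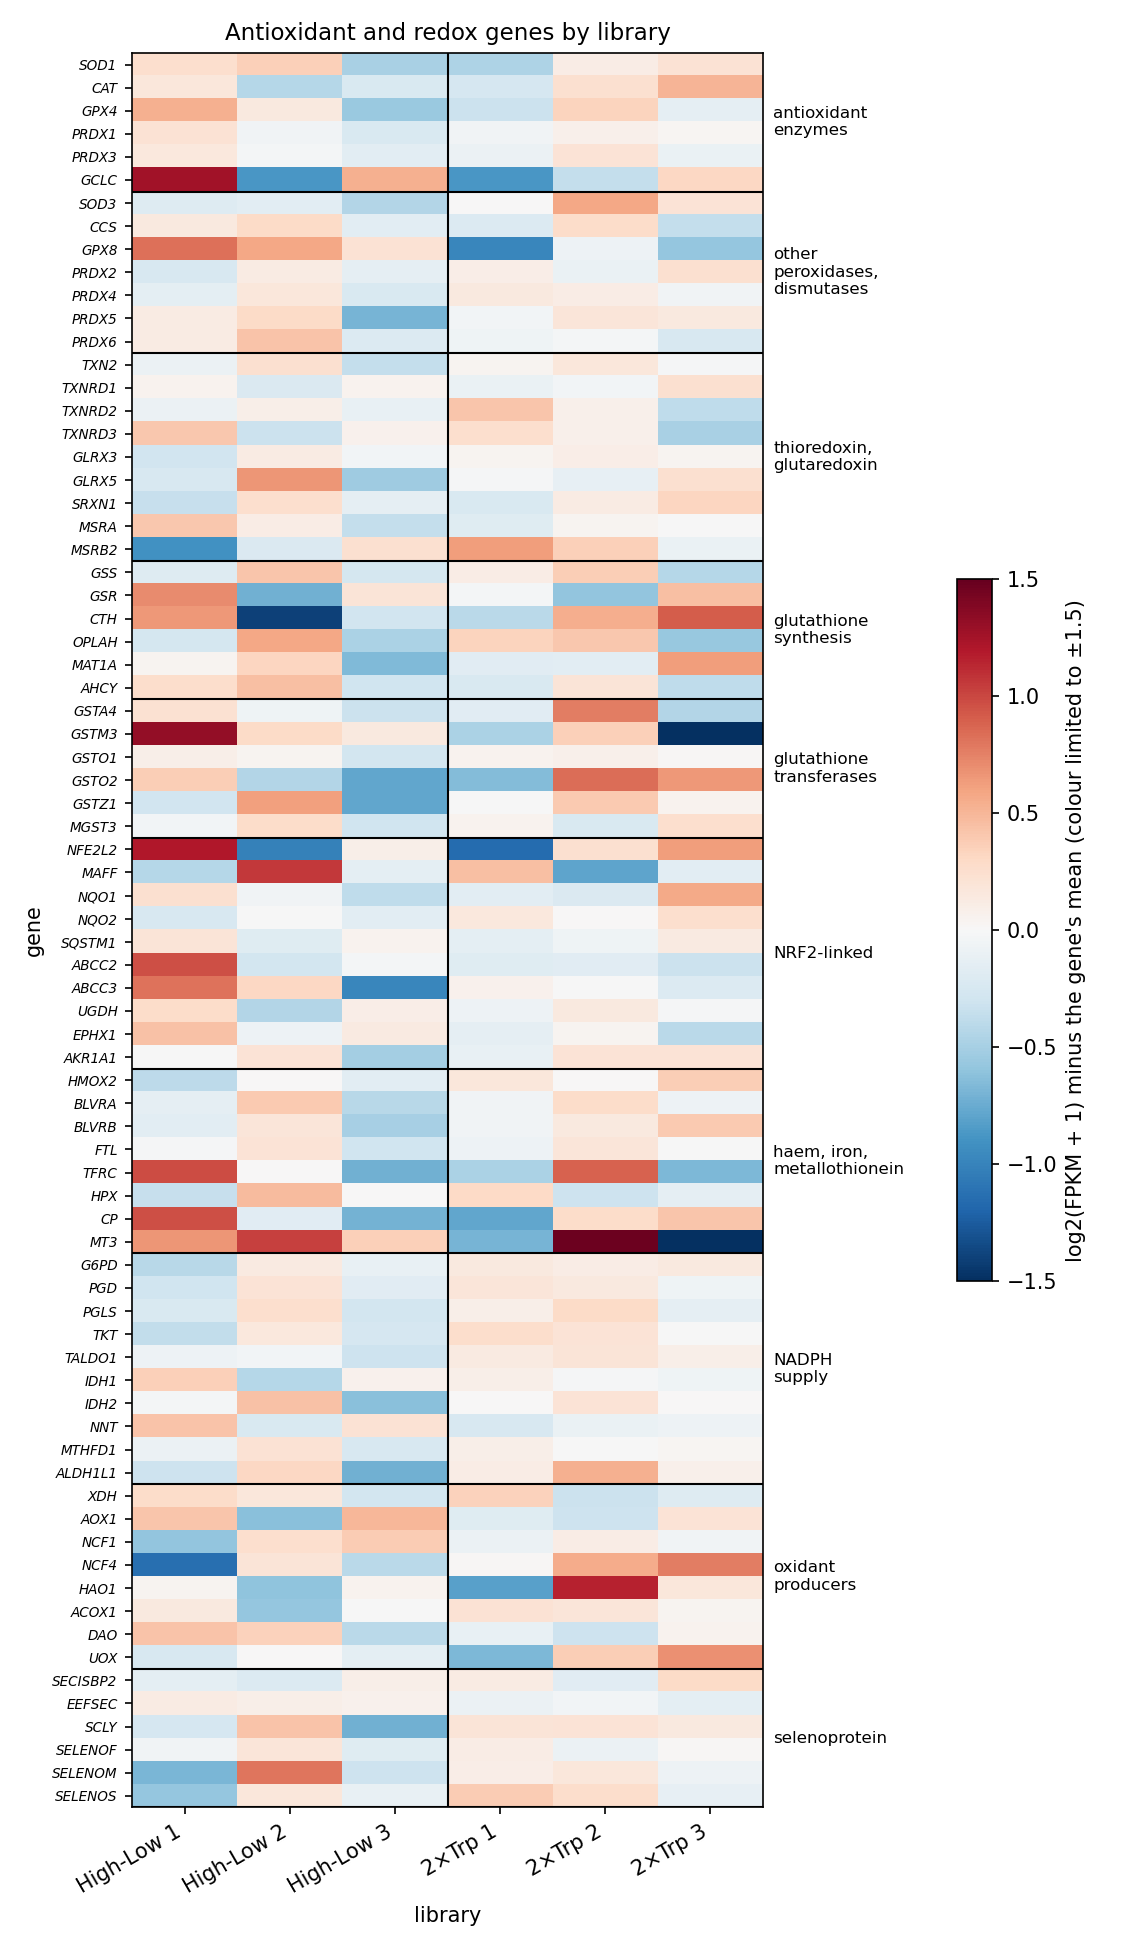
Log2(FPKM + 1) minus the gene's mean over the 6 libraries for the 6 members and tested genes of 9 redox lists (rows, grouped by list, with a colour scale limited to ±1.5), with the High-Low libraries left of the line and 2×Trp right of it. GCLC and NFE2L2 share their highest library, High-Low 1, and their lowest, 2×Trp 1, but differ in High-Low 3. NQO1 is highest in 2×Trp 3 and lowest in High-Low 3.

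Other dismutases and peroxidases had 3 positive and 4 negative fold changes among 7 tested genes, with a median of -0.13. GPX8, a peroxidase of the endoplasmic reticulum, had 2.997, 2.39 and 1.63 FPKM in High-Low 1, 2 and 3, against 0.15, 1.14 and 0.52 FPKM in 2×Trp 1, 2 and 3. The diets did not overlap, and 2 of the 2×Trp values lay under the filter of 1 FPKM. Its log2 fold change was 1.09 (SE 0.29, unadjusted p = 0.00691). At this low level the size depends on the pseudocount: it was 2.04 with 0.1 FPKM in place of 1, and GPX8 did not pass a filter of 5 FPKM. SOD3, the dismutase of the extracellular space, had 18.0, 18.4 and 14.9 FPKM in High-Low 1, 2 and 3, against 20.7, 31.3 and 24.0 FPKM in 2×Trp 1, 2 and 3, with a log2 fold change of -0.53 (SE 0.21, unadjusted p = 0.0418). All 3 High-Low values lay below all 3 2×Trp values.

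Together with PRDX1 and PRDX3, the tables held 6 peroxiredoxins. PRDX4, the enzyme of the endoplasmic reticulum, had 330, 411 and 312 FPKM in High-Low 1, 2 and 3, against 404, 394 and 353 FPKM in 2×Trp 1, 2 and 3. PRDX5, found in mitochondria, peroxisomes and cytosol, had 382, 429 and 216 FPKM in High-Low and 339, 398 and 387 FPKM in 2×Trp. PRDX2, abundant in red cells, had 114, 146 and 122 FPKM in High-Low and 144, 126 and 159 FPKM in 2×Trp. The diets overlapped in all of these. PRDX2 was lowest in High-Low 1 and highest in 2×Trp 3. The erythroid sums given above, which are mostly HBB, were also lowest in High-Low 1 and were high in 2×Trp 1 and 2×Trp 3. The part of red cells in the PRDX2 values was not tested. PRDX6, a peroxiredoxin that uses a single cysteine, was the lowest of the family, at 21.7, 27.2 and 17.1 FPKM in High-Low and 19.0, 19.5 and 16.7 FPKM in 2×Trp. PRDX5 and PRDX4 overlapped in range, as did PRDX1 and PRDX3, and PRDX2 lay above both PRDX1 and PRDX3 in every library.

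The thioredoxin and glutaredoxin system, which recycles peroxiredoxins and repairs oxidised proteins, had 2 positive and 7 negative fold changes among 9 tested genes, with a median of -0.07. MSRB2, a mitochondrial methionine sulfoxide reductase, had 3.90, 6.85 and 9.79 FPKM in High-Low 1, 2 and 3, against 13.2, 10.7 and 7.58 FPKM in 2×Trp 1, 2 and 3. High-Low 3 lay inside the 2×Trp range, and the log2 fold change was -0.59 (SE 0.34), or -0.29 without High-Low 1. GLRX3, a cytosolic glutaredoxin, had 60.2 ± 8.60 FPKM in High-Low and 65.3 ± 1.38 FPKM in 2×Trp (SD, n = 3 each). TXN2, the mitochondrial thioredoxin that serves PRDX3, had 154, 193 and 127 FPKM in High-Low 1, 2 and 3, against 168, 183 and 160 FPKM in 2×Trp 1, 2 and 3, with overlap. TXN2, and CCS, PRDX2, PRDX4, PRDX5 and PRDX6 above, were picked for their roles with the values already known.

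Glutathione synthesis, supply and recycling had 2 positive and 4 negative fold changes among 6 tested genes, with a median of -0.07. CTH, which makes cysteine for glutathione, had 111, 26.1 and 57.8 FPKM in High-Low 1, 2 and 3, against 53.4, 104 and 134 FPKM in 2×Trp 1, 2 and 3. Its lowest library was High-Low 2, which was also at the bottom for GCLC, but High-Low 1 and 2×Trp 2 were close for CTH and far apart for GCLC. The log2 fold change of CTH was -0.70 (SE 0.55). It was -1.20 without High-Low 1, -0.17 without High-Low 2, -1.08 without 2×Trp 1 and -0.42 without 2×Trp 3. AHCY, which hydrolyses S-adenosylhomocysteine ahead of that step, had 201 ± 51.6 FPKM in High-Low and 164 ± 35.0 FPKM in 2×Trp (SD, n = 3 each). The cystine carrier SLC7A11 was listed at 0 in all 6 libraries. The length listed for it is 150 bases, so this value does not show that the carrier was absent.

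Glutathione transferases, which couple glutathione to foreign and oxidised compounds, had 1 positive and 5 negative fold changes among 6 tested genes (median -0.10). GSTM3 had 13.1, 5.88 and 5.23 FPKM in High-Low 1, 2 and 3, against 3.05, 6.22 and 0.83 FPKM in 2×Trp 1, 2 and 3, a log2 fold change of 1.17 (SE 0.54) with overlap through 2×Trp 2. Without 2×Trp 3 it was 0.65. GSTO2 had 0.69 ± 0.72 FPKM in High-Low and 1.58 ± 1.18 FPKM in 2×Trp (SD, n = 3 each). Members of these families share sequence, and the split of reads between them is uncertain.

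NRF2 regulators and NRF2-linked genes had 6 positive and 4 negative fold changes among 10 tested genes, with a median of 0.07. NFE2L2 encodes NRF2 itself and was picked with its values known, as were KEAP1 and NQO1. NFE2L2 had 13.2, 2.07 and 5.59 FPKM in High-Low 1, 2 and 3, against 1.79, 6.32 and 8.59 FPKM in 2×Trp 1, 2 and 3. It was highest in High-Low 1 and lowest in 2×Trp 1, as was GCLC, and High-Low 2 was next to lowest in both. High-Low 3 differed, being next to highest for GCLC but below 2×Trp 2 and 2×Trp 3 for NFE2L2. NQO1, of the same list, was highest in 2×Trp 3 and lowest in High-Low 3. A relation of NFE2L2 to GCLC was not tested. KEAP1, the inhibitor of NRF2, was under 1 FPKM in every library. NQO2, a quinone reductase, had 127, 150 and 135 FPKM in High-Low 1, 2 and 3, against 168, 151 and 180 FPKM in 2×Trp 1, 2 and 3, without overlap, at a log2 fold change of -0.28 (SE 0.18). EPHX1, the microsomal epoxide hydrolase, had 432 ± 78.3 FPKM in High-Low and 343 ± 51.6 FPKM in 2×Trp (SD, n = 3 each).

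Genes of haem breakdown, iron storage and metallothionein had 4 positive and 4 negative fold changes among 8 tested genes (median -0.0043). HMOX2, the constitutive haem oxygenase, had 165, 218 and 194 FPKM in High-Low 1, 2 and 3, against 244, 218 and 280 FPKM in 2×Trp 1, 2 and 3. The diets lay close but did not overlap, at 217.7 FPKM in High-Low 2 and 218.4 FPKM in 2×Trp 2, and the log2 fold change was -0.36 (SE 0.19). The metallothionein gene named MT3 had 50.8, 65.8 and 41.1 FPKM in High-Low 1, 2 and 3, against 19.1, 89.6 and 3.65 FPKM in 2×Trp 1, 2 and 3. It varied most within 2×Trp, and as metallothioneins are near copies of each other its identity is uncertain. Genes of NADPH supply, which feed glutathione and thioredoxin reductases, had 1 positive and 9 negative fold changes among 10 tested genes (median -0.17). TALDO1 of the pentose phosphate pathway had 314, 323 and 267 FPKM in High-Low 1, 2 and 3, against 362, 379 and 352 FPKM in 2×Trp 1, 2 and 3, without overlap, at a log2 fold change of -0.28 (SE 0.17). ALDH1L1, which makes NADPH from folate intermediates, had 80.9 ± 30.1 FPKM in High-Low and 110 ± 20.6 FPKM in 2×Trp (SD, n = 3 each).

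Oxidant producers had 4 positive and 5 negative fold changes among 9 tested genes (median -0.26). NCF4, a cytosolic subunit of the phagocyte NADPH oxidase, had 2.13, 6.89 and 4.20 FPKM in High-Low 1, 2 and 3, against 5.99, 9.13 and 10.7 FPKM in 2×Trp 1, 2 and 3. High-Low 2 lay inside the 2×Trp range, and the log2 fold change was -0.90 (SE 0.37, unadjusted p = 0.0456), or -0.55 without High-Low 1. NCF1, another cytosolic subunit named after its values were seen, overlapped between diets at a log2 fold change of 0.03 (SE 0.29). The oxidase as a whole was not assessed here. The summed level of macrophage markers was also lower on average in High-Low. The 5 of 10 markers present in the tables summed to 246, 444 and 316 FPKM in High-Low 1, 2 and 3, against 413, 572 and 561 FPKM in 2×Trp 1, 2 and 3. Of these markers 4 had a negative and 1 a positive fold change, and none was at 0 throughout. By limma 0 were called, while 4 had an unadjusted p under 0.05 with High-Low lower, as did 1.92% of all genes. Neutrophil markers, another phagocyte list, stood at 30.4, 98.5 and 37.1 FPKM in High-Low and 24.7, 29.5 and 35.2 FPKM in 2×Trp, summed over 6 of 8 markers. The part of phagocyte numbers in the NCF4 values was not tested.

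Most glutathione peroxidases depend on selenoprotein synthesis. The list of selenoprotein synthesis and transport had 1 positive and 5 negative fold changes among 6 tested genes (median -0.15). It also held selenoproteins themselves, SELENOS among them, so these counts do not describe synthesis and transport alone. SELENOS had 29.1 ± 7.60 FPKM in High-Low and 36.9 ± 6.71 FPKM in 2×Trp, and the selenocysteine lyase SCLY had 22.1 ± 9.38 FPKM in High-Low and 27.1 ± 0.58 FPKM in 2×Trp (SD, n = 3 each). EEFSEC, the elongation factor for selenocysteine, was named because the diets did not overlap, after its values were seen. It had 12.6, 12.3 and 12.1 FPKM in High-Low 1, 2 and 3, against 10.7, 11.2 and 10.3 FPKM in 2×Trp 1, 2 and 3, and its log2 fold change was 0.18 (SE 0.17).

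The remaining cell type markers gave these sums beside the enzymes. Endothelial markers, 9 of 11 present, summed to 112, 154 and 157 FPKM in High-Low 1, 2 and 3, against 215, 154 and 222 FPKM in 2×Trp 1, 2 and 3. Bile duct markers, 4 of 6 present, summed to 16.5, 19.1 and 16.0 FPKM in High-Low and 23.4, 18.9 and 19.8 FPKM in 2×Trp, and stellate cell markers, 6 of 8 present, to 54.6, 71.0 and 96.1 FPKM in High-Low and 98.6, 54.7 and 79.2 FPKM in 2×Trp. High-Low 1, the highest library for GCLC, GPX4 and PRDX1, was the lowest for the erythroid, macrophage and endothelial sums and, by less than 0.1 FPKM, for the stellate sum. Whether the makeup of cells in High-Low 1 bears on those enzymes was not tested. Some marker lists leaned one way between the diets. Log2 fold changes were positive for 0 and negative for 9 tested endothelial markers, and 0 and 5 for erythroid ones. They were 5 and 0 for neutrophil, 2 and 1 for bile duct and 2 and 3 for stellate markers. In each of these lists limma called 0, and all were read from the same 6 libraries.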

How the data were processed

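Liver RNA libraries (Illumina TruSeq, 1 per sample) were processed with the pig assembly susScr3, Bowtie2 2.2.3, TopHat2 2.0.12 and HTSeq 0.6.1, per the submitters' processing notes. The sources used here name neither the step that made the values nor the annotation or strandedness. Per gene and library the authors deposited 1 value without a stated unit, read here as FPKM. For single-exon genes of 800 bases or more, 98.25% to 99.24% of values up to 8 fragments were whole within 0.05 fragments.

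Groups came from sample titles. Symbols came from a table naming 11804 of 25322 Ensembl identifiers. The test was limma 3.58.1 (R 4.3.3; trend, robust) on log2(FPKM + 1), with a filter of 1 FPKM in 3 libraries, Benjamini-Hochberg adjustment over 10901 genes and a threshold of 0.05. Single ratios and correlations had exact permutation tests (scipy 1.17.1). Figures used matplotlib 3.10.9 in Python 3.11.15. Members and lists were chosen with earlier results of these data known. Named genes are the members, the 2 of smallest p in each list, the 3 nearest profiles and those said to be picked later; the SD of a near profile had to reach 0.5 of the member's.

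The fit was tested on simulated data first. Alternatives tried were 3 scalings, a pseudocount of 0.1, no filter, a filter at 5 FPKM, another variance estimate, the replicate block and leaving out each library. The SOD2 to SOD1 and GCLC to GCLM ratios were not analysed here, and some genes that the naming rule picks are not reported here.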

Additional observations from a re-analysis of the deposited data

How the results depend on the processing

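Under all 14 alternatives of the fit, 0 members were called, CAT stayed negative (-0.53 to -0.15) and GCLC positive (0.14 to 1.20), and the members' median log2 fold change ran from -0.13 to 0.21. Leaving out single replicates gave -0.12 to 0.35 for SOD1, -0.16 to 0.38 for GPX4, -0.16 to 0.066 for PRDX1, -0.0947 to 0.0891 for PRDX3 and -0.032 to 0.10 for the PRDX3 to PRDX1 ratio, each across 0. PRDX3 was 0.0014 with total scaling, 0.0512 with nuclear scaling and 0.0884 with quantile normalization; PRDX1 was 0.0248 with nuclear scaling and 0.0453 with quantile normalization. Over all genes, the count lower in High-Low was 1 instead of 0 with total scaling, nuclear scaling and quantile normalization (1 each), and the count higher was 1 to 2 without single replicates, where it was 2 without 2×Trp replicate 3. Without the libraries farthest from the median, r with the mitochondrial mRNAs was -0.25 for SOD1, -0.0222 for GPX4, -0.53 for PRDX1 and -0.45 for GCLC, and with the mitochondrial share of the total it was 0.0246 for CAT and 0.76 for GCLC. The cause of these shifts was not tested. None of the 20 genes named from the lists changed sign or passed the threshold in 277 values, but with a pseudocount of 0.1 GPX8 was 2.04 in place of 1.09 and GSTO2 -1.09 in place of -0.56, and some of the 20 have no value under the filter of 5 FPKM. Same-numbered samples did not pair (correlations of deviations -0.22, -0.01 and 0.03); with the replicate block 1 gene was higher, 0 were lower, 0 members were called and the PRDX3 to PRDX1 difference was 0.03. The edgeR test on recovered reads was not run, since whole fragments were found only for single-exon genes.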
